A study of Mus musculus with 3 samples.

Results

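Surface molecules that mark the selection and maturation of thymocytes were followed in T cells grown from mouse bone marrow with and without vitamin C. The set held 9 genes, Cd5, Cd6, Cd2, Cd28, Cd27, Cd69, Itm2a, Ccr7 and Ccr9, chosen by symbol, with every probe that the array design names for them. They were 9 of the 27729 genes on a mouse array with 2 dyes, read by 11 of its 41174 gene probes. Each of the 3 arrays set RNA of cells given pAsc, the agent that the series' title ties to vitamin C, against RNA of matching cells without it.

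On the first T cell array, C57BL/6 bone marrow progenitors had been cultured on OP9-DL1 stroma with Flt3L and IL7 for 17 days, with 800 µM pAsc for the last 72 h or with none. On the second the same kind of culture was harvested at 14 days, with 800 µM pAsc for the last 24 h or with none. On the third, OP9-DL1 cells alone (strain B6-C3Hf1, cell type labelled osteoblast) had received 800 µM pAsc for 24 h or none. All T cell cultures, untreated ones included, thus shared the stroma, Flt3L and IL7. OP9-DL1 is a single stromal line engineered to display a Notch ligand, and it was removed before harvest only by letting it adhere for 30 min. The T cell samples carry the cell type label bone marrow. There was 1 array per comparison, RNA of pAsc-treated cells was always in Cy5 and RNA of untreated cells in Cy3, and no dye swap was made. Values therefore have no replicate error, no test of significance was possible, and a dye effect of a single gene cannot be told apart from an effect of pAsc.

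Thymocytes whose T cell receptor signals on meeting self peptides survive and mature, and they carry a record of that signal on their surface. Cd69 and Cd5 are induced by the signal, Cd69 briefly and Cd5 in proportion to its strength, and the chemokine receptors Ccr9 and Ccr7 guide the cells through the cortex and into the medulla. Cd2, Cd28 and Cd27 bind partners on neighbouring cells and add to the signal.

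Probe sequences are given for the 2 members with the largest pAsc ratios and for the 2 genes whose probes disagreed, all 5′ to 3′ and in lower case throughout. The Cd2 probe (chr3:101083802-101086981, mm9, minus strand) and the dimmer Cd6 probe (chr19:10867422-10868678, minus strand) have 60 bases each but span 3180 and 1257 genomic bases, so each crosses a splice junction. Both are printed whole. Of the brighter Cd6 probe (chr19:10863891-10863950, minus strand), the brighter Cd28 probe (chr1:60829679-60829738, plus strand), the dimmer Cd28 probe (chr1:60820867-60820926, plus strand) and the Ccr9 probe (chr9:123690334-123690393, plus strand) the first 30 bases are shown.
Cd2: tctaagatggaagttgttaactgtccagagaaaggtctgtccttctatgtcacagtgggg
Ccr9: caggcaagaggcacttgctgcaggttctcc
Cd6, brighter: ggttattgcagccaagaccttaaacaggtc
Cd6, dimmer: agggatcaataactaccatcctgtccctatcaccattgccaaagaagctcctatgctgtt
Cd28, brighter: ctacatggtaagatggaccagaaattgcaa
Cd28, dimmer: ttttacattcaactttagcacaattacaat
The dimmer Cd28 probe has a GC content of 25%, against 41.7% for the brighter one, and the array design ties it to a cDNA clone and not to a RefSeq transcript. The Cd5 probe lies at chr19:10792701-10792760 (minus strand), the Cd27 probe at chr6:125183076-125183135 (minus strand) and the Cd69 probe at chr6:129217697-129217756 (minus strand). The Itm2a probe lies at chrX:104592916-104592975 (minus strand), and of the Ccr7 probe 26 bases are placed, at chr11:99005513-99005538 (minus strand). Exons and untranslated regions were not assigned.

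The samples were first set against their labels. All 9 listed T lineage genes, among them Cd3d, Cd3e, Lck and Bcl11b, were well above background in all 4 T cell channels. In OP9-DL1 cells this held for 2 of the 9 in the pAsc-treated channel and for 1 of the 9, Cd3e, in the untreated one. T cell RNA also held stromal transcripts: of 20 listed stromal genes, such as collagens and fibronectin, 18 to 20 were well above background in every T cell channel. All 7 listed NK cell genes were well above background there too, as were 7 to 9 of 9 B lineage genes, 5 of 8 myeloid, 3 or 4 of 5 mast cell and 5 or 6 of 7 dendritic cell genes. Both channels of OP9-DL1 cells alone had 1 of 7 NK cell and 4 of 9 B lineage genes well above background. They also had the same 5 of 8 myeloid genes, 2 of 5 mast cell genes and 2 of 7 dendritic cell genes. In bulk RNA of this kind, fewer cells of a type and less RNA per cell cannot be told apart. Repeated spots of a probe had a pooled log2 SD of 0.0677 on the stromal array, 0.0696 on the 24 h array and 0.0658 on the 72 h array. Different probes of a gene differed more, with SDs of 0.178, 0.144 and 0.178 in the same order.

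All 9 members, with all 11 probes, were well above background in every T cell channel, whereas 3 of the 9 genes were in OP9-DL1 cells. Levels below are log2 intensities after normalization within and between arrays, and they are compared for 1 probe across samples and never between genes. Cd27, a TNF receptor family member that costimulates T cells, had log2 levels of 12.14 and 12.61 in pAsc-treated and untreated day 17 T cells, 12.35 and 12.48 in those of day 14, and 6.26 and 6.08 in OP9-DL1 cells. Its T cell and stromal levels lay far apart, with the stromal ones at background. In untreated cells Cd27 was at least 85.3-fold higher in day 17 T cells than in stroma, and at least 77.8-fold higher in day 14 T cells. The other members at background in stroma gave lower bounds of the same kind: Cd69 was at least 26.6-fold higher at day 17 and 27.8-fold at day 14, and Cd28 at least 6.04-fold and 26.6-fold. Stromal log2 levels of these were 6.52 with pAsc and 6.35 without for Cd69, and 6.03 and 6.15 for Cd28. For the rest, the bounds were at least 30.2-fold at day 17 and 15.1-fold at day 14 for Ccr9, 7.18-fold and 11.6-fold for Ccr7, and 11.4-fold and 7.06-fold for Cd2. Stromal log2 levels were 6.64 with pAsc and 6.50 without for Ccr9, and 6.41 and 6.16 for Cd2. These bounds set the T cell level against the higher of the dimmest well-measured stromal signal and the gene's own stromal signal.

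Among the 3 genes measured in both kinds of cell, Cd5 and Cd6 were higher in T cells and Itm2a was not. Cd5 was 14.3-fold higher in untreated day 17 T cells than in untreated OP9-DL1 cells and 7.96-fold higher in those of day 14. Cd6, by its brighter probe, was 18.7-fold higher at day 17 and 12.0-fold higher at day 14. These folds depend on the background correction and the probe. As log2 differences, Cd5 was at 3.84 at day 17 and 2.99 at day 14, against 4.82 and 3.94 with normexp offset 0. Cd6 was at 4.23 and 3.58, against 4.97 and 4.32 with offset 0 and 2.08 and 1.69 with the median of its probes. Thus 2 of 3 members were at least 2-fold higher in T cells and 0 of 3 lower at either day, where 10.4% of 14087 measured genes were higher and 15.4% lower at day 17, and 15.9% of 13873 higher and 24.3% lower at day 14. The dimmer Cd6 probe did not separate the cell types, with log2 differences of -0.07 at day 17 and -0.19 at day 14. Its log2 levels lay between 6.47 and 7.15 in all 6 channels.

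**Figure D1:**
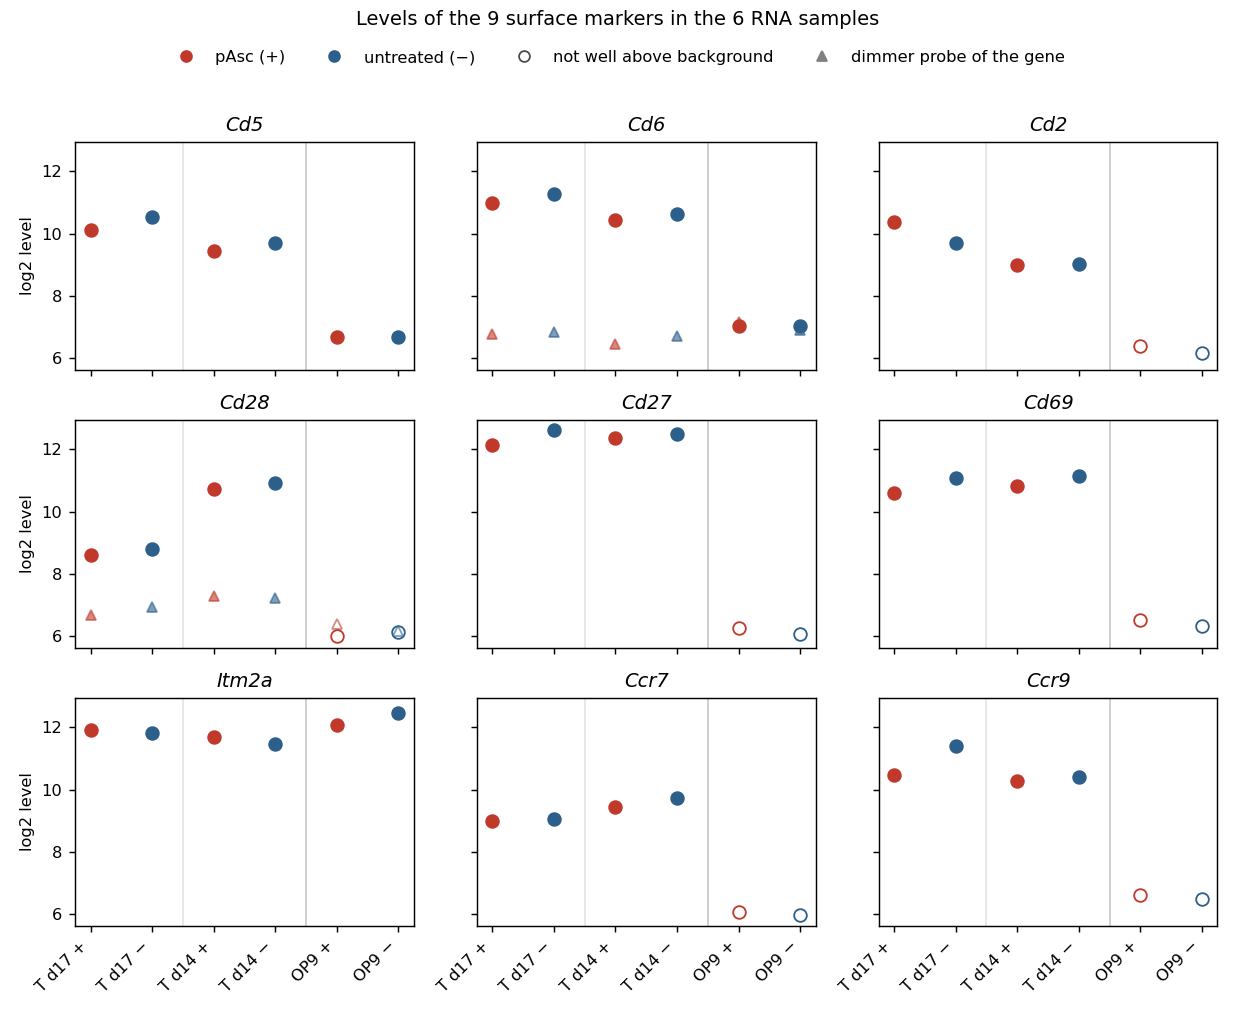
Log2 level (vertical axis) of every member probe in the 6 RNA samples, with pAsc (+, red) beside untreated (−, blue) for day 17 T cells, day 14 T cells and OP9-DL1 cells; circles are the brighter or only probe, triangles the dimmer probe, open symbols are not well above background, and each point is 1 channel without an error bar. Itm2a is bright in all 6 samples and brightest in OP9-DL1 cells, and 6 members are at background in OP9-DL1 cells.

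Itm2a encodes a membrane protein that is switched on in thymocytes during positive selection, and it is also known from cartilage and muscle. Its log2 level was 11.93 and 11.82 in pAsc-treated and untreated day 17 T cells, 11.71 and 11.48 in those of day 14, and 12.09 and 12.45 in OP9-DL1 cells. The highest levels were thus those of the stroma, and the untreated T cell levels differed from the untreated stromal one by log2 -0.63 at day 17 and -0.97 at day 14. Stromal genes were present in the T cell RNA, with a log2 summed level of 19.08 and 18.48 in pAsc-treated and untreated day 17 T cells, 17.92 and 17.09 in those of day 14, and 19.50 and 19.15 in OP9-DL1 cells. The part of stromal RNA in the Itm2a signal of T cells was not tested.

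RefSeq promoter sequences (GRCm38.p6, 250 bases before to 50 after the start) were at hand for 4 of the 9 members. Those of Cd27 and Itm2a are shown because these genes stood at the ends of the T cell against stroma scale. The letters CANNTG, an E-box that reads the same on both strands, are in capitals.
Cd27, chr6:125236978-125237277, minus strand: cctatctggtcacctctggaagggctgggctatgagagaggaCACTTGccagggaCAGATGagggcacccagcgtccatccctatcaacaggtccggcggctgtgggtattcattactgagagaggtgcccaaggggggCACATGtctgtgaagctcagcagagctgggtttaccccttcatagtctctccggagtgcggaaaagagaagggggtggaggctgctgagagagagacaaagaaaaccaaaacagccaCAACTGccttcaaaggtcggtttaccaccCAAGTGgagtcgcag
Itm2a, chrX:107403311-107403610, minus strand: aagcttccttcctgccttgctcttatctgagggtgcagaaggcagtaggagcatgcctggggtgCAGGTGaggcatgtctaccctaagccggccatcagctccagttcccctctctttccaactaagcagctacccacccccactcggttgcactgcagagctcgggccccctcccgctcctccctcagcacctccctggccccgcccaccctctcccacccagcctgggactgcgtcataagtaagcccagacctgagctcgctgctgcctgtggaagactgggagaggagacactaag
The Cd27 window held 5 such matches, none overlapping, and 2.10% of 32851 mouse promoters held at least as many. The Itm2a window held 1, and 72.3% of promoters held at least 1, and those of Cd5 and Ccr9 held 2 each, a count met or passed by 39.6%. A match describes letters only and shows no binding.

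With 1 array per comparison a gene was called by size alone, at 2-fold or more where it was well above background in both channels. After 72 h of pAsc, 0 of the 9 members were at least 2-fold higher and 0 of 9 at least 2-fold lower in T cells, where 0.227% of 16315 measured genes were higher and 0.38% lower. Of the 9, 7 had ratios within 0.5 of 0 on the log2 scale, and the other two were Ccr9 and Cd2, in opposite directions. Ccr9, the receptor for Ccl25 in the thymus cortex, had log2 levels of 10.47 in pAsc-treated and 11.41 in untreated day 17 T cells. Its log2 ratio was -0.94, or 1.92-fold lower with pAsc, just short of the 2-fold mark. Cd2, an adhesion receptor for Cd48 in the mouse, had log2 levels of 10.37 in pAsc-treated and 9.71 in untreated day 17 T cells, a log2 ratio of 0.66.

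The remaining 72 h ratios were smaller. Cd5 and Cd6, related scavenger-receptor proteins that temper T cell receptor signals, had log2 ratios of -0.40 and -0.28. Cd5 stood at a log2 level of 10.13 with pAsc and 10.54 without, and Cd6 at 10.98 with pAsc and 11.26 without. Cd69, an early activation marker that holds cells in tissue by binding S1pr1, had log2 levels of 10.61 with pAsc and 11.08 without, a ratio of -0.48. Cd27 had a log2 ratio of -0.47. Cd28, the costimulatory receptor for Cd80 and Cd86, was at 8.61 with pAsc and 8.79 without, a ratio of -0.18. Its brighter probe was spotted 10 times on this array, and these spots ran from -0.24 to -0.11 with a mean of -0.18 ± 0.038 (SD over spots, not over cultures). The dimmer probes gave -0.24 for Cd28 and -0.07 for Cd6. Ccr7, which draws maturing thymocytes to the medulla, was at 9.002 with pAsc and 9.05 without, and Itm2a had a log2 ratio of 0.10.

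The ratios of 7 of the 9 genes lay below 0, with a median of -0.28 over the members and 0.006 over all measured genes. The 9 T lineage genes had a median of -0.34 in the same comparison, from -0.60 to 0.03, and 0 of them were 2-fold apart. Stromal genes stood at a median of 0.48, and 3 of 19 passed the rule upwards. NK cell genes stood at a median of -0.71, and 2 of 7 passed it downwards, as did 4 of 7 B lineage genes, whose median was -1.02. Myeloid genes (5 measured, median 0.07) had 2 downwards, and dendritic cell genes had 0 of 5 either way (median 0.04). Mast cell genes had 1 of 2 downwards (median -0.74, Cpa3 at -2.13 and Gata2 at 0.65). Gata2 was lower in untreated day 17 T cells than in untreated stroma, by log2 -1.22. The part of these lists' shifts in the members' values was not tested.

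The direction of the small ratios changed with the centring of the array. With each array centred on the median of all probes, the median of all measured genes was 0.55 and the ratios of Cd5, Cd6, Cd28, Cd27, Cd69 and Ccr7 turned positive, at 0.21 to 0.52. They remained below the median of all genes, Cd2 at 1.31 and Itm2a at 0.85 were above it, and Ccr9 was at -0.25. With centring on measured genes, Ccr9 was at -0.74 and Cd2 at 0.81, and Ccr7 alone turned, to 0.03. With the deposited Agilent log ratio Ccr9 was at -0.95 and Cd2 at 0.68.

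**Figure D2:**
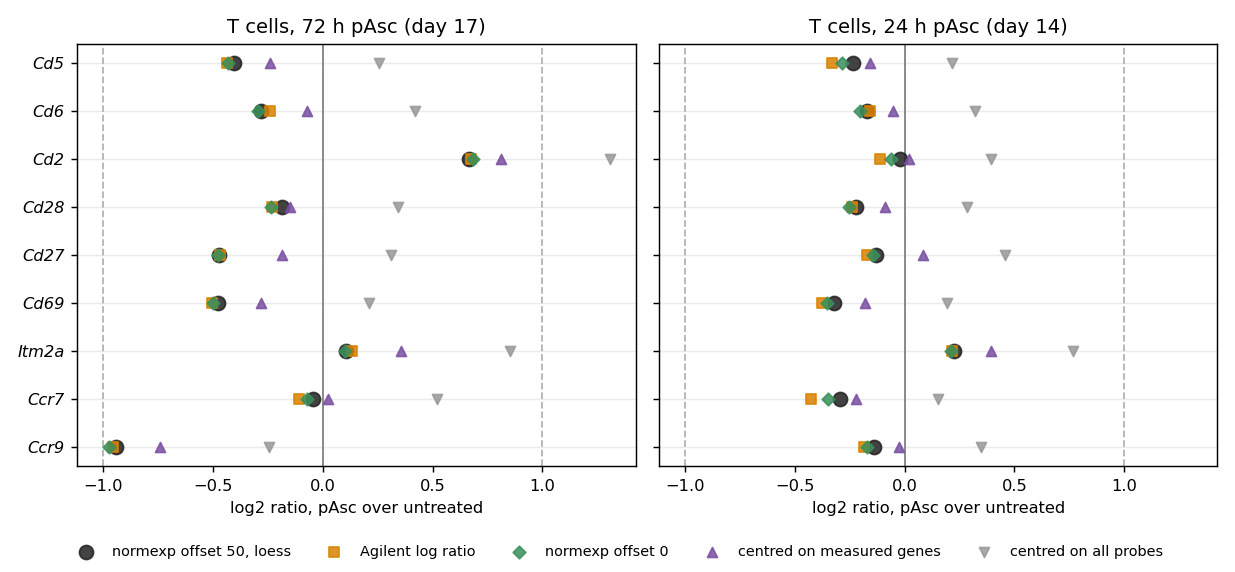
Log2 ratio of pAsc-treated over untreated T cells (horizontal axis) for each member at 72 h (left) and 24 h (right) under 5 ways of scaling the array, with dashed lines at the 2-fold rule; each point is 1 array without an error bar. In the values reported (black circles) Ccr9 lies at -0.94 and Cd2 at 0.66 at 72 h, and centring on all probes moves every member upwards.

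After 24 h of pAsc, 0 of the 9 members were 2-fold higher and 0 of 9 lower in day 14 T cells, against 0.329% higher and 0.0118% lower of 17001 measured genes. The ratios ran from -0.32 for Cd69 to 0.22 for Itm2a. Cd69 had log2 levels of 10.82 in pAsc-treated and 11.14 in untreated day 14 T cells. Ccr7 was at 9.44 with pAsc and 9.74 without, a log2 ratio of -0.29. Cd5 was at 9.45 with pAsc and 9.69 without, a log2 ratio of -0.23, and Cd6 was at 10.45 with pAsc and 10.62 without. The other ratios were -0.22 for Cd28, -0.17 for Cd6, -0.14 for Ccr9, -0.13 for Cd27 and -0.02 for Cd2. The 10 spots of the brighter Cd28 probe ran from -0.27 to -0.17, all below 0, while the dimmer Cd28 probe gave 0.08. The median over the members was -0.17, against 0.02 over all measured genes and 0.08 over the T lineage genes. Stromal genes stood at a median of 0.72 here, and 5 of 18 passed the rule upwards. NK cell genes stood at -0.30 and B lineage genes at 0.16, with 0 past the rule among either. With centring on all probes, where all genes had a median of 0.42, all 9 members were above 0. Centring on measured genes put Cd27 at 0.08 and also turned Cd2, which was near 0.

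The 72 h and 24 h arrays come from cultures of different length and share no sample. The pAsc ratio was below 0 on both for 7 members, Cd5, Cd6, Cd28, Cd27, Cd69, Ccr7 and Ccr9, and above 0 on both for Itm2a. These signs rested on the scaling, since centring on all probes put all 9 members above 0 at 24 h. The share of all measured genes below 0 on both arrays was not computed. The ratio at 72 h minus that at 24 h was 0.68 for Cd2 and -0.80 for Ccr9. For the others it ran from -0.34 for Cd27 to 0.25 for Ccr7. Thus 0 of 9 members were 2-fold apart in either direction, against 0.19% of 15798 genes higher and 0.373% lower, with medians of -0.12 over the members and -0.03 over all genes. Of the other lists' genes, Pdcd1 (-1.16) and Slamf6 (1.08) passed the rule in this difference among the receptor-induced genes and the surface molecules. Duration of pAsc and day of culture differ together between these arrays and cannot be told apart.

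In OP9-DL1 cells given pAsc for 24 h, 0 of the 3 measured members were 2-fold higher and 0 of 3 lower, against 0.439% higher and 0.118% lower of 14348 measured genes. Their median was -0.02, against 0.02 over all genes. Cd5 had log2 levels of 6.68 with pAsc and 6.70 without, and Cd6 had 7.05 and 7.04. Itm2a was at 12.09 with pAsc and 12.45 without, a log2 ratio of -0.36. That sign depended on the scaling, since the ratio was 0.02 with centring on measured genes and 0.57 with centring on all probes, a scaling that put the median of the measured genes at 0.65.

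Between day 17 and day 14, 2 members, Cd28 and Cd2, passed the 2-fold rule. These differences compare the same dye on separate arrays, share their channels with the pAsc ratios above, and cannot be told apart from differences between arrays. Cd28 fell in both conditions: its log2 level was 8.61 in pAsc-treated day 17 T cells against 10.71 at day 14, and 8.79 in untreated day 17 T cells against 10.93 at day 14. These are 4.30-fold lower with pAsc and 4.41-fold lower without. The dimmer Cd28 probe gave log2 differences of -0.62 with pAsc and -0.30 without, in the same direction but short of 2-fold. With the median of both probes, Cd28 was at -1.36 with pAsc and -1.22 without.

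Cd2 moved the other way. Its log2 level was 10.37 in pAsc-treated day 17 T cells against 9.0004 at day 14, which is 2.58-fold higher, and 9.71 in untreated day 17 T cells against 9.02, which is 1.61-fold higher. Ccr9 had log2 levels of 11.41 in untreated day 17 T cells and 10.41 at day 14, a difference of 0.999 at the edge of the rule, whereas in pAsc-treated cells the levels were 10.47 and 10.28, a difference of 0.20. Cd5 differed by 0.68 with pAsc and 0.85 without, and Cd6, by its brighter probe, by 0.53 and 0.64. The dimmer Cd6 probe gave 0.314 with pAsc and 0.125 without. Ccr7 differed by -0.44 with pAsc and -0.69 without. Cd69, Cd27 and Itm2a stayed within 0.35 of 0 in both conditions.

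Among pAsc-treated cells, 1 of 9 members was thus at least 2-fold higher at day 17, where 6.9% of 16934 genes were, and 1 of 9 lower, where 5.34% were. Among untreated cells 0 of 9 were higher, where 7.72% of 15904 genes were, and 1 of 9 lower, where 3.6% were. The members' medians were 0.20 with pAsc and 0.34 without, against -0.003 and 0.002 over all genes. In both conditions Cd5, Cd6, Cd2, Itm2a and Ccr9 were higher at day 17 and Cd28, Cd69 and Ccr7 lower. Stromal genes were higher at day 17 as well, 16 of 19 at least 2-fold with pAsc (median 1.26) and 15 of 18 without (median 1.76). The 9 T lineage genes had medians of -0.44 and -0.08 and moved in both directions. With pAsc 1 was at least 2-fold higher and 1 lower, from -1.06 to 1.23. Without pAsc 1 was higher and 0 lower, from -0.87 to 1.33. Of 7 measured B lineage genes, 5 were at least 2-fold lower in both conditions and 1, in untreated cells, was higher, with medians of -1.79 with pAsc and -1.48 without. The pre-B cell gene Vpreb1 was at -4.19 and -2.48, and the B cell adaptor Blnk at -4.10 and -2.76. The higher one was Ebf1, at 0.39 with pAsc and 1.06 without. Ebf1 was lower in untreated day 14 T cells than in untreated stroma, by log2 -2.67. Dendritic cell genes had 2 of 5 lower in both (medians -0.78 and -0.91), with Cd74 at -1.81 and -2.01. The 1 above 0 in both was Itgax, at 0.66 and 0.33. Myeloid genes had 2 of 5 lower with pAsc, and 1 lower and 1 higher without (medians -0.55 in both), and the granule protease Ctsg was at -3.54 and -2.02. The 2 above 0 in both were Cd14, at 0.83 and 1.22, and Csf1r, at 0.26 and 0.11. Both were lower in untreated day 14 T cells than in untreated stroma, by log2 -3.33 for Cd14 and -1.09 for Csf1r. NK cell genes stood at medians of 0.55 with pAsc, where 1 of 7 was lower, and 0.08 without, where 2 were higher. Mast cell genes stood at 0.05, where 1 of 3 was lower, and -0.45, where 0 passed the rule. The part of these shifts in the members' values was not tested.

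**Figure D3:**
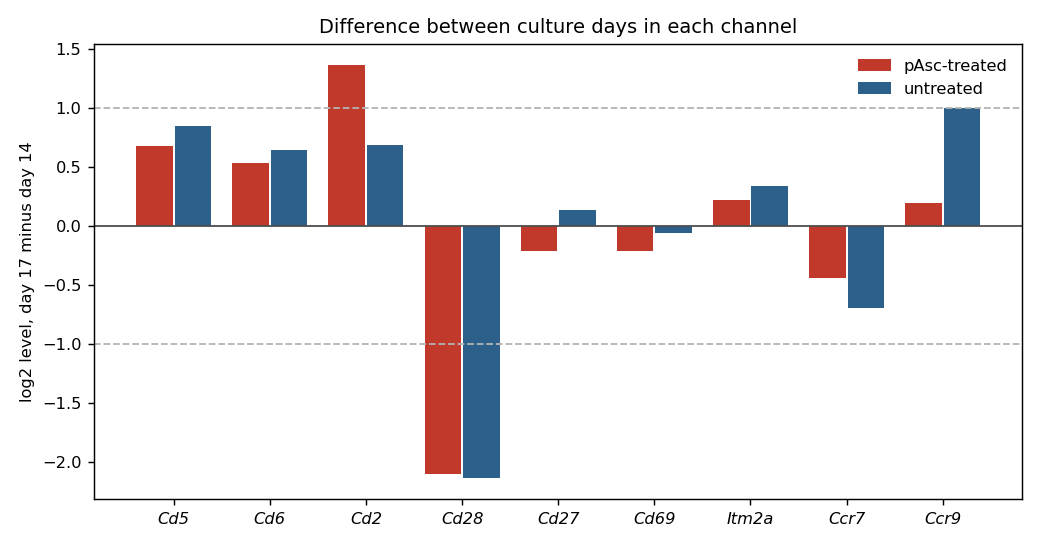
Log2 level at day 17 minus that at day 14 (vertical axis) of each member in pAsc-treated (red) and untreated (blue) T cells, with dashed lines at the 2-fold rule; each bar is 1 channel against 1 channel, without an error bar. Cd28 lies beyond -2 in both conditions, Cd2 passes 1 with pAsc, and Ccr9 lies at 0.20 with pAsc and at 0.999 without.

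Binding partners of the members did not pass the 2-fold rule with pAsc. Of the listed ligands, 6 were measured at 72 h and 8 at 24 h, and 0 were 2-fold apart in either direction, with medians of -0.01 and 0.05. Of all measured genes, 0.227% were higher and 0.38% lower at 72 h, and 0.329% higher and 0.0118% lower at 24 h. At such shares, a count of 0 in a short list says little about the partners. Alcam, the ligand of Cd6, had log2 ratios of -0.19 at 72 h and -0.07 at 24 h. The Cd2 ligand Cd48 had -0.10 and -0.08, the Cd28 ligand Cd80 had 0.43 and 0.32, and the Ccr9 ligand Ccl25 had 0.07 and 0.16. Ccl19, a ligand of Ccr7, was at 0.02 and 0.16, and Cd72, described as a ligand of Cd5, at -0.04 and -0.17. Measured at 24 h alone were Cd70, the ligand of Cd27, at 0.38 and Cd86 at -0.05. Between day 17 and day 14, Cd80 was higher by log2 1.43 with pAsc and 1.32 without. Untreated day 14 T cells had less Cd80 signal than untreated stroma, by log2 -1.49, and stromal genes were higher at day 17 by medians of 1.26 and 1.76. Their part in the Cd80 difference was not tested.

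A further list held 15 partners, intracellular ones and the surface receptor S1pr1. All 15 were measured, and with pAsc 0 of 15 were 2-fold apart at either time, with medians of -0.03 at 72 h and -0.04 at 24 h. The shares of all measured genes were 0.227% higher and 0.38% lower at 72 h, and 0.329% and 0.0118% at 24 h. Cbl, a ubiquitin ligase recruited by Cd5, had the lowest 72 h ratio of the list at -0.75, and was at -0.04 at 24 h. Ptpn6, a phosphatase linked to Cd5, was at -0.32 and -0.14. Ubash3a, a further Cd5 partner, was at -0.10 and -0.03. The Cd6 partners Lcp2 and Sh2d2a were at 0.02 and 0.09 at 72 h and at 0.04 and -0.28 at 24 h. Of the Cd2 tail binders, Pstpip1 was at 0.03 and -0.14, Cd2ap at 0.07 and 0.03, and Cd2bp2 at -0.08 and -0.09. The Cd28 adaptor Grb2 was at -0.39 and -0.15, Grap2 at -0.22 and -0.06, and the kinase subunit Pik3r1 at -0.03 and -0.01. S1pr1, which Cd69 binds, was at 0.33 and 0.36, and Traf5, an adaptor of Cd27, was at 0.06 and 0.34. Traf2 was at -0.10 and -0.08 and Siva1, a Cd27-binding protein, at 0.04 and 0.15. At day 17 against day 14, Traf5 was higher by 1.04 with pAsc and 1.32 without. It was lower in untreated day 14 T cells than in untreated stroma, by log2 -2.53. The part of stromal RNA in that difference was not tested. Cbl fell by 1.41 with pAsc and was at -0.69 without.

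Genes that the T cell receptor induces in thymocytes were read as a further list. At 72 h 0 of 13 measured were 2-fold apart, where 0.227% of all measured genes were higher and 0.38% lower, with a median of -0.004. Nr4a1, the Nur77 transcription factor, was at 0.91 and the inhibitory receptor Pdcd1 at -0.95. At 24 h 1 of 13 was at least 2-fold higher, the immediate-early factor Egr1 at 1.105, and 0 lower, with a median of -0.04. The shares of all measured genes there were 0.329% higher and 0.0118% lower. At day 17 against day 14, 0 of 13 were higher and 2 lower with pAsc, where 6.9% and 5.34% of all measured genes were, with a median of -0.42. Without pAsc 1 was higher and 3 lower, where 7.72% and 3.6% of all genes were, with a median of -0.62. With pAsc the lower ones were Cd83 at -1.82 and Nr4a2 at -1.07. In untreated cells the lower ones were Cd83 at -2.03, Egr3 at -1.29 and Myc at -1.04, and Pdcd1 was the higher one at 1.16.

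Of 30 other surface molecules of maturing T cells, 2 passed the rule upwards and 4 downwards with pAsc at 72 h, with a median of -0.09. The 30 include S1pr1 and Cd48, which also stand in the lists of partners. Slamf6 at 1.38 and Cd200 at 1.29 were higher. Among the lower ones, the integrin chain Itga4 was at -1.15. Over all measured genes 0.227% were higher and 0.38% lower. At 24 h 0 of the 30 were 2-fold apart, against 0.329% higher and 0.0118% lower of all measured genes, also with a median of -0.09. At day 17 against day 14, 4 of 30 were higher and 7 lower with pAsc, against 6.9% and 5.34% of all measured genes, with a median of -0.13. Without pAsc 3 were higher and 3 lower, against 7.72% and 3.6%, with a median of -0.17. With pAsc, Cd200 at 2.20 and Slamf6 at 1.89 were among the higher ones and the chemokine receptor Cxcr4 at -2.32 among the lower ones. In untreated cells Cd200 was higher at 1.49, and Cxcr4 at -2.02, Tnfrsf9 at -1.37 and Ctla4 at -1.35 were lower. Cd200 was lower in untreated day 14 T cells than in untreated stroma, by log2 -3.29, and the part of the stromal shift in its values was not tested.

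For each member, the genes with the most similar profile over the 6 channels were sought among 14201 genes, by the root mean square difference of log2 levels centred on each gene's own mean. The 6 channels come from 3 arrays and share dyes and cultures, so the likeness is a description. Itm2a had the closest neighbours, Gfpt1 at 0.0595 and Ndufa4 at 0.0657. Cd69 was nearest to Chn2 at 0.0956 and Cysltr1 at 0.104. The pair nearest to Cd28 was Tnfsf11 at 0.103 and Pag1 at 0.127, and that nearest to Ccr7 was Prelid2 at 0.104 and Stk26 at 0.124. Cd6 was nearest to Rgs14 at 0.114 and Itgb2 at 0.155, and Cd27 to Pglyrp2 at 0.127 and Trim12a at 0.142. The members with the least similar neighbours were Cd5, with Il17re at 0.201 and Abi3 at 0.206, Cd2, with Slc5a9 at 0.205 and Tceal3 at 0.246, and Ccr9, with Pdcd1 at 0.246 and Mfng at 0.253.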

How the data were processed

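The deposited files hold scanner output of 3 arrays with 2 dyes, read, as the file headers say, by version 10.5.1.1 of Agilent's Feature Extraction. The authors' values used were spot intensities (mean signals and local backgrounds) and, as an alternative, the deposited log10 ratio of Cy5 over Cy3, turned to log2. Intensities were corrected with normexp (offset 50) and normalized by loess within arrays (span 0.3) and Aquantile between arrays, in limma 3.58.1 under R 4.3.3. The normexp and loess steps were tested on simulated data, and the step between arrays was not. Tables and figures used Python 3.11.15, numpy 2.4.6, pandas 2.3.3 and matplotlib 3.10.9. Control spots were left out and spots of a probe averaged. Spots with outlier flags (117 to 130 an array) had weight 0 in the loess fit. They were left out of the averages except where every spot of a probe was flagged. A gene is its brightest probe. It counts as measured where at least 0.5 of its spots are well above background in both channels, by the deposited flags. With 1 array per comparison, the number of arrays limits the precision, and calls use a rule of size, 2-fold. Of the probes, 25097 were named by accession, 6333 by symbol, 1640 by synonym and 8104 by the file.

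Members and lists were chosen with earlier results of these data known. Named are all members, up to 4 genes per list and comparison past 2-fold (largest first), the partners of members, and the 2 nearest profiles. Nr4a1 and Pdcd1 at 72 h, Gata2, and the cell type markers named at day 17 against day 14 were chosen after their values were seen. The values of 1 gene of the lists are not reported here.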

Additional observations from a re-analysis of the deposited data

Results flagged for a closer look

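The pAsc ratio had opposite signs in different samples for 3 members, each sample being 1 array, and these differences were not tested. For Cd2 the log2 ratio was 0.66 in T cells after 72 h and -0.02 after 24 h, a difference of 0.68. For Itm2a it was -0.36 in OP9-DL1 cells and 0.22 in T cells after 24 h, a difference of -0.58, and against 0.10 in T cells after 72 h the difference was -0.46. For Cd6 it was 0.01 in OP9-DL1 cells, where the gene was dim, against -0.17 in T cells after 24 h, a difference of 0.18, and against -0.28 after 72 h, a difference of 0.29. The signs depended on the scaling: with centring on measured genes Cd6 was at -0.47 in OP9-DL1 cells, -0.05 at 24 h and -0.07 at 72 h, Cd2 was at 0.02 at 24 h, and Itm2a was at 0.02 in OP9-DL1 cells.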

How the results depend on the processing

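Each pAsc ratio sets treated against untreated RNA of matching cells within 1 array. No paired analysis over replicates was possible because each group has 1 sample. The main counts were computed again under each alternative for background, scaling, probe choice and filter. The alternatives include a running median over genes of like brightness that was chosen after seeing the data. Of the recomputed counts, 107 equalled the value reported or were within 1.5 times of it, and 5 were not. Counts of 0 that stayed at 0 are among the 107. The members at least 2-fold higher at 72 h numbered 1 (Cd2) with centring on all probes. At day 17 against day 14 in untreated cells 1 (Ccr9, 1.02) was higher with normexp offset 0. In untreated T cells against untreated stroma, 8 of 9 were higher at day 17 and 8 of 9 at day 14 with no filter on dim probes, since that admits genes at background in stroma, and 1 (Itm2a, -1.28) was lower at day 14 with channels scaled to one median. The cause of the other moves was not tested. Over all alternatives the 72 h ratio ran from -0.97 to -0.25 for Ccr9 and from 0.63 to 1.31 for Cd2. The count of all genes at least 2-fold higher and lower at 72 h, 37 and 62, became 116 and 166 on the deposited ratio, 85 and 104 at offset 0, and 1675 and 12 when arrays were centred on all probes. At 24 h, 56 and 2 became 147 and 32 on the deposited ratio, and 806 were higher when centred on all probes. In stroma, 63 and 17 became 136 and 110 on the deposited ratio, and 2903 and 2 when centred on all probes. Dim signals limit the stromal comparison to 3 members.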
